A study of Mus musculus with 6 samples.

Results

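The genes described here are the Notch receptors *Notch1*, *Notch2* and *Notch3*, the ligands *Jag1*, *Jag2* and *Dll1*, the glycosyltransferase *Lfng*, the coactivator *Maml2* and the target genes *Hes1* and *Hey1*. These 10 genes were chosen by name from the 47643 gene IDs in the files, and all 10 were found and passed the filter on low counts. The RNA came from organoids of the mouse submandibular gland (mSGOs), which grow in Matrigel from dissociated cells of the gland. Organoids from 3 female C57BL/6 mice, 8 to 12 weeks old, were collected at day 5 and again at day 7, so that each day has 3 libraries and each mouse gives 1 library per day. No genetic change is given for the mice, and both days shared the same conditions: no irradiation, no other treatment, and WRY medium with EGF, FGF2, N2, insulin, dexamethasone, the ROCK inhibitor Y27632 and conditioned media for R-spondin1 and Wnt3a. The organoids are a culture model, and no sort for a cell type is described for these libraries.

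Notch signaling passes a message between touching cells. A Jagged or Delta ligand on one cell binds a Notch receptor on its neighbour, proteases release the intracellular part of the receptor, and this part joins the DNA-binding protein RBPJ and a Mastermind coactivator in the nucleus to turn on genes such as the Hes and Hey repressors. Fringe enzymes add sugars to the receptor and so shift its response between Delta and Jagged ligands. In ducts and other glandular epithelia the pathway is known for its part in keeping progenitor cells and in choosing between cell fates.

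The libraries held between 1918198 and 2837397 counts in genes, and 3 counts in a library correspond to 1.04 to 1.51 CPM (counts per 1000000 counts in genes, after scaling). Each count is a read from the 3′ end of a transcript. The spread between the mice was larger at day 7, with a biological coefficient of variation of 0.290 against 0.0900 at day 5. All 10 epithelial markers on the marker list were detected, with a summed level of 14838 to 18526 CPM at day 5 and 12071 to 16683 CPM at day 7. Among them *Krt19* was higher past the threshold (log2 fold change 1.78, adjusted p = 1.56e-05 in edgeR) and *Krt8* was lower (-0.65, adjusted p = 0.037). Of 10 endothelial markers, 7 had a count, *Cdh5*, *Tek* and *Plvap* were at 0, and the sum of 12.2 to 14.1 CPM at day 5 and 13.2 to 27.4 CPM at day 7 was mostly *Egfl7*. The acinar list summed to 10.5 to 18.0 CPM at day 5 and 19.9 to 45.0 CPM at day 7, with 4 of the 7 genes found having a count. The mural list stayed at or below 0.720 CPM in every library, and the macrophage list summed to 8.03 to 10.7 CPM at day 5 and 9.30 to 13.9 CPM at day 7, with *Adgre1*, *Csf1r*, *Lyz2*, *C1qa* and *C1qb* at 0. The macrophage marker *Cd68* rose past the threshold, from 0.360 to 1.65 CPM at day 5 to 3.07 to 6.85 CPM at day 7 (log2 fold change 2.36, adjusted p = 0.015 in edgeR), and its part in the results on the Notch genes was not tested. *Cd14* held more counts than *Cd68* (104 against 46) and did not pass (log2 fold change -0.48, adjusted p = 0.471 in edgeR). Its levels were 7.03 to 9.07 CPM at day 5 and 2.45 to 7.98 CPM at day 7. The fibroblast list summed to 45.2 to 68.1 CPM at day 5 and 148 to 313 CPM at day 7, nearly all of it *Fn1*, while *Col1a2*, *Col3a1*, *Lum* and *Dpt* were at 0. *Fn1* was higher past the threshold (log2 fold change 1.78, adjusted p = 0.0003 in edgeR). In bulk RNA, fewer cells of a type and less RNA per cell cannot be told apart.

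Between day 5 and day 7, 1 of the 10 genes passed the threshold in edgeR. It was the target gene *Hey1*, which was higher at day 7. Across all 15792 genes tested, 12.0% passed, 7.22% higher and 4.82% lower, so the share among the Notch genes was near that of all genes. To pass, a gene needed a log2 fold change above 0.6 or below -0.6 and an adjusted p under 0.05. With all 6 libraries, day as the only term and the filter on low counts, none of the 10 passed as lower in edgeR, DESeq2 or limma voom. Both days come from the same mice, and once mice entered edgeR as blocks, *Hes1* was lower past the threshold (log2 fold change -0.69, adjusted p = 0.025), as it was with no block and no filter (-0.65, adjusted p = 0.025). Under these settings the calls over all genes rose too, from 1901 to 2340 with the blocks and to 2405 with no filter. With the filter and no block, 2 of the 10, *Jag2* and *Hes1*, were lower at an unadjusted p under 0.05 in edgeR. In either direction 4 of the 10 reached that p, as did 25.8% of all genes tested. The median log2 fold change was 0.17 for the 10 genes and -0.01 for all genes tested.

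**Figure D1:**
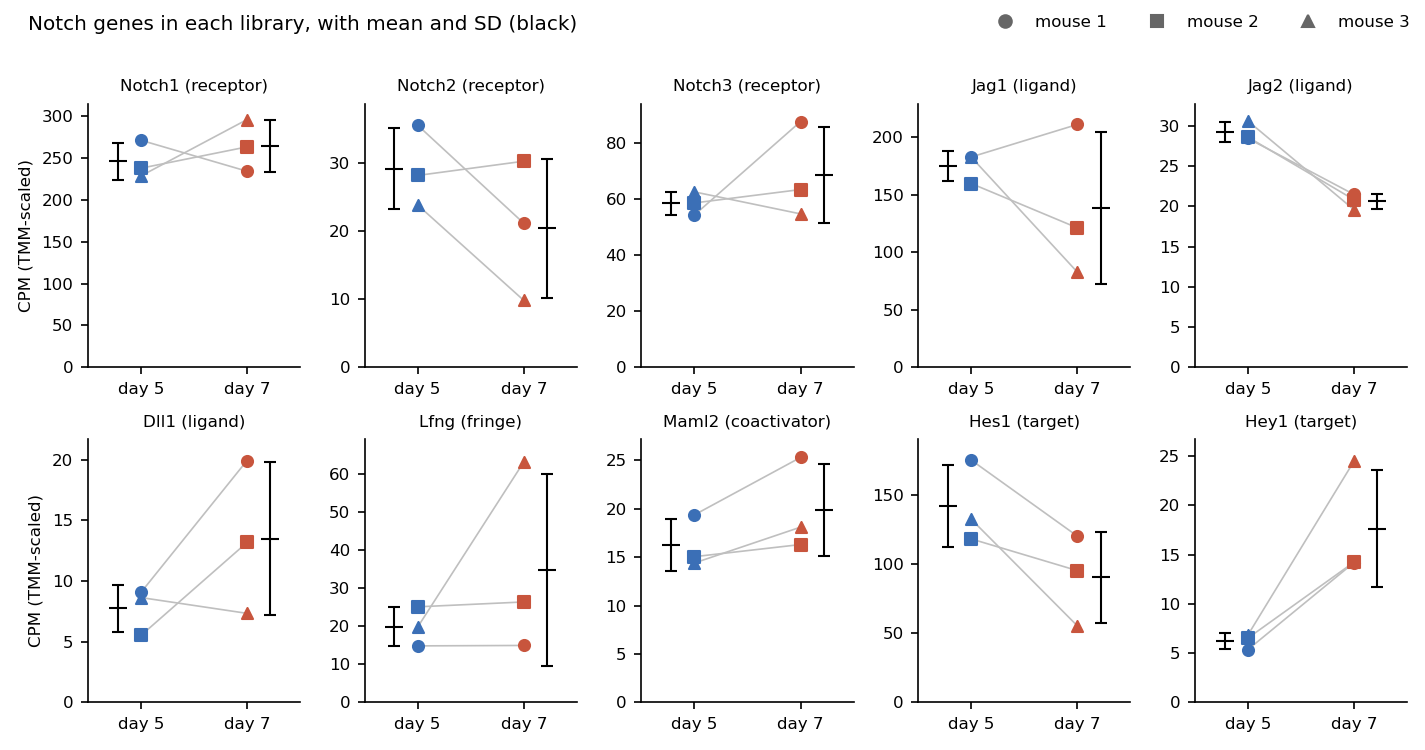
Level of each Notch gene in CPM (vertical axis, from 0) at day 5 and day 7. Points are libraries, grey lines join the libraries of a mouse, and black marks give the mean and SD of 3 libraries; only *Hey1* and *Jag2* have days that do not overlap.

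The receptors held more counts than the ligands or the targets, and none of the 3 receptors changed past the threshold. *Notch1* (ENSMUSG00000026923; GRCm39 chromosome 2, 26347915 to 26406675, minus strand) was at 271, 238 and 229 CPM in mice 1, 2 and 3 at day 5 and at 234, 263 and 296 CPM at day 7. The days overlapped, with 2 of 3 mice higher at day 7. The log2 fold change of *Notch1* was 0.10 ± 0.18 (SE), with a 95% interval from -0.28 to 0.49 and an adjusted p of 0.787 in edgeR, so a change of the size found for *Hey1* lies outside the interval. At both days *Notch1* stood above 96.5% of the genes tested by its mean level.

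*Notch3* (ENSMUSG00000038146; chromosome 17, 32339794 to 32385893, minus strand) was the second receptor. Its levels were 54.4, 58.7 and 62.7 CPM at day 5 and 87.8, 63.5 and 54.8 CPM at day 7. Mouse 1 was higher at day 7 and mouse 3 was lower, and the log2 fold change was 0.23 ± 0.22 (adjusted p = 0.539). *Notch2* (ENSMUSG00000027878; chromosome 3, 97920800 to 98057677, plus strand) was at 35.5, 28.1 and 23.8 CPM at day 5 and at 21.1, 30.2 and 9.79 CPM at day 7. The fall in mouse 3 to the lowest of the 6 values was not shared by mouse 2, and the log2 fold change of *Notch2* was -0.49 ± 0.32 (adjusted p = 0.356). The remaining receptor, *Notch4*, had 4 counts in all 6 libraries together.

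Added up, the receptors differed little between libraries. The sum of *Notch1*, *Notch2* and *Notch3* was 361, 325 and 315 CPM at day 5 and 343, 357 and 361 CPM at day 7. *Notch1* made up 73.6% ± 1.3 (SD, n = 3) of this sum at day 5 and 74.7% ± 7.0 (SD, n = 3) at day 7. Within the sum, the share of *Notch1* at day 7 ran from 68.3% in mouse 1 to 82.1% in mouse 3, while that of *Notch3* ran from 25.6% to 15.2%.

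Among the ligands, *Jag1* was the most abundant, *Jag2* was lower at day 7 in every mouse without passing the threshold, and *Dll1* was sparse. *Jag1* (ENSMUSG00000027276; chromosome 2, 136923373 to 136958693, minus strand) was at 183, 160 and 183 CPM at day 5 and at 211, 121 and 82.7 CPM at day 7. The 3 mice lay close together at day 5 and far apart at day 7, where mouse 1 was above and mice 2 and 3 were below all day 5 values. The log2 fold change of *Jag1* was -0.34 ± 0.26 (adjusted p = 0.427). Without the day 7 library of mouse 1 it was -0.77 and passed the threshold (adjusted p = 0.013 in edgeR), and without that of mouse 3 it was -0.08. Calls over all genes rose as well, from 1901 to 2472 without the library of mouse 1 and to 2576 without that of mouse 3.

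*Jag2* (ENSMUSG00000002799; chromosome 12, 112871421 to 112893437, minus strand) had the tightest values of the set. It was at 28.5, 28.6 and 30.6 CPM at day 5 and at 21.5, 20.8 and 19.6 CPM at day 7. Every mouse was lower at day 7 and the days did not overlap. The log2 fold change of *Jag2* was -0.50 ± 0.24, with a 95% interval from -0.997 to -0.005, and neither its size nor its adjusted p of 0.189 in edgeR passed. Of all genes tested, 30.9% had days that did not overlap, against 2 of the 10 Notch genes, *Jag2* and *Hey1*.

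*Dll1* (ENSMUSG00000014773; chromosome 17, 15587276 to 15597134, minus strand) rested on 11 to 24 counts per library at day 5 and 15 to 52 at day 7. Its levels were 9.07, 5.52 and 8.64 CPM at day 5 and 19.9, 13.2 and 7.34 CPM at day 7. Mice 1 and 2 were higher at day 7 and mouse 3 was lower, which gave a log2 fold change of 0.80 ± 0.37 (adjusted p = 0.175). Without the day 7 library of mouse 3 the value was 1.06 and passed (adjusted p = 0.023 in edgeR), and without that of mouse 1 it was 0.42. Calls over all genes also rose without the library of mouse 3, from 1901 to 2576. As a share of the 3 ligands, *Dll1* took 4.12%, 2.85% and 3.90% at day 5 and 7.90%, 8.50% and 6.70% at day 7. All day 7 shares were above all day 5 shares, in mouse 3 with a lower total of the ligands and not a higher level of *Dll1*.

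*Lfng* and *Maml2* act between ligand and target. *Lfng*, the Lunatic fringe enzyme (ENSMUSG00000029570; chromosome 5, 140593075 to 140601300, plus strand), was at 14.8, 25.1 and 19.8 CPM at day 5 and at 14.96, 26.4 and 63.1 CPM at day 7. Mice 1 and 2 hardly moved, and the difference between the days lay in the day 7 library of mouse 3. The log2 fold change of *Lfng* was 0.79 ± 0.39 (adjusted p = 0.205). It was 0.07 without the day 7 library of mouse 3, and 1.15 without that of mouse 1, which passed (adjusted p = 0.015 in edgeR). Calls over all genes also rose without the library of mouse 1, from 1901 to 2472. *Maml2*, a Mastermind coactivator (ENSMUSG00000031925; chromosome 9, 13298302 to 13620684, plus strand), was at 19.4, 15.1 and 14.4 CPM at day 5 and at 25.3, 16.3 and 18.1 CPM at day 7. All 3 mice were higher at day 7, but the days overlapped and the log2 fold change was 0.29 ± 0.28 (adjusted p = 0.5498).

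The targets *Hey1* and *Hes1*, both basic helix-loop-helix repressors, had fold changes of opposite sign. *Hey1* (ENSMUSG00000040289; chromosome 3, 8726956 to 8732385, minus strand) was at 5.36, 6.53 and 6.84 CPM at day 5 and at 14.2, 14.2 and 24.5 CPM at day 7. These levels came from 13, 13 and 19 counts at day 5 and 37, 41 and 50 counts at day 7. Each mouse was higher at day 7 and the days did not overlap. *Hey1* rose by 1.47 ± 0.33 on the log2 scale (95% interval 0.78 to 2.17, adjusted p = 0.00644 in edgeR), which is 2.77-fold with an interval from 1.71 to 4.50. The call was lost without the day 5 library of mouse 1, at a log2 fold change of 1.37 (adjusted p = 0.054 in edgeR), and when edgeR tested against a log2 fold change of 0.6 with glmTreat (adjusted p = 0.052).

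*Hes1* (ENSMUSG00000022528; chromosome 16, 29882134 to 29886643, plus strand) ranked behind *Notch1* and *Jag1* at both days by CPM. It was at 175, 118 and 132 CPM at day 5 and at 120, 95.1 and 55.3 CPM at day 7. Every mouse was lower at day 7, but the day 7 value of mouse 1 was above the day 5 value of mouse 2. The log2 fold change of *Hes1* was -0.65 ± 0.25 (95% interval -1.17 to -0.13), and its adjusted p of 0.0981 in edgeR did not pass. With the mouse as a block, which compares each mouse with itself, *Hes1* fell by 0.69 on the log2 scale and passed (adjusted p = 0.025 in edgeR). It also passed without the day 7 library of mouse 1, at -0.90 (adjusted p = 0.012), whereas it was -0.40 without that of mouse 3 and -0.47 without the day 5 library of mouse 1. Without the day 7 library of mouse 1, calls over all genes rose too, from 1901 to 2472.

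Within a library, the ratio of *Hey1* to *Hes1* does not depend on scaling. It was 0.0307, 0.0553 and 0.0518 at day 5 and 0.118, 0.1496 and 0.442 at day 7. The days did not overlap, and mouse 3 at day 7 stood well above the others. *Hey1* thus made up 2.97% to 5.24% of the summed CPM of both targets at day 5 and 10.6% to 30.7% at day 7. The summed level of the cycling markers moved over the same days, from 1534 to 1793 CPM at day 5 to 589 to 876 CPM at day 7, with 6 of 6 genes lower past the threshold, and its part in the *Hes1* and *Hey1* values was not tested.

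The abundance of receptors, ligands and targets was then compared within each day. At day 5 the order by mean level was *Notch1* (246 CPM), *Jag1* (175), *Hes1* (142), *Notch3* (58.6), *Jag2* (29.2), *Notch2* (29.1), *Lfng* (19.9), *Maml2* (16.3), *Dll1* (7.75) and *Hey1* (6.24 CPM). Neighbours kept this order in all 3 libraries except for *Jag2* and *Notch2*, *Lfng* and *Maml2*, and *Dll1* and *Hey1*, which did not differ beyond their spread. At day 7 the order was *Notch1* (265 CPM), *Jag1* (138), *Hes1* (90.1), *Notch3* (68.7), *Lfng* (34.8), *Jag2* (20.6), *Notch2* (20.4), *Maml2* (19.9), *Hey1* (17.6) and *Dll1* (13.5 CPM). Here the first 4 genes kept their order in all 3 libraries, and no pair of neighbours from *Notch3* and *Lfng* downwards did. With 3 libraries the exact two-sided sign-flip test cannot give a p below 0.25, which was its value for every pair of neighbours that held in all 3.

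**Figure D2:**
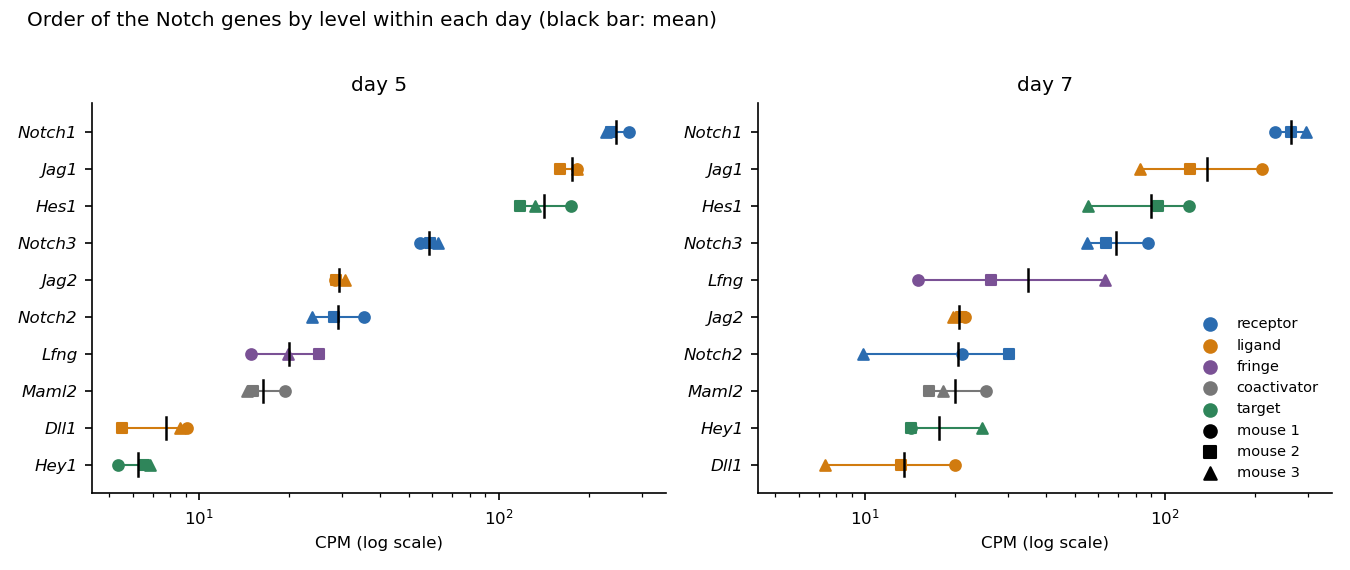
Notch genes in order of mean level at day 5 (left) and day 7 (right), with CPM on a log axis. Symbols are the libraries of mice 1 to 3, horizontal lines span them, black bars are means and colours give the role; the first 4 genes are the same at both days, and the spread is wider at day 7.

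A comparison of levels between genes depends on whether reads are divided by length. Reads of a 3′ method come from the transcript end, so CPM was taken as the main scale. Per kilobase of annotated exon, *Hes1* came first (42.0 CPM per kilobase at day 5 and 26.7 at day 7), *Jag1* second (29.4 and 23.2) followed by *Notch1* (17.3 and 18.6). The same 3 genes therefore led on both scales, in another order. *Hey1* was last at day 5 on both scales, at 1.30 CPM per kilobase, and ranked sixth at day 7 per kilobase, at 3.68.

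By sums of CPM, the receptors were above the ligands and the ligands above the targets in all 6 libraries. The 3 ligands added up to 220, 194 and 222 CPM at day 5 and to 252, 155 and 110 CPM at day 7. For the ratio of ligands to receptors this gave 0.610, 0.597 and 0.704 at day 5 and 0.735, 0.434 and 0.304 at day 7. It rose in mouse 1, fell in mice 2 and 3, and the days overlapped. The ratio of *Jag1* alone to *Notch1* had the same pattern, at 0.673, 0.671 and 0.798 at day 5 and 0.9002, 0.460 and 0.279 at day 7. The sum of both targets was 180, 124 and 139 CPM at day 5 and 134, 109 and 79.8 CPM at day 7. Relative to the receptors, the targets were at 0.499, 0.383 and 0.441 at day 5 and at 0.391, 0.306 and 0.221 at day 7, lower at day 7 in each mouse but with an overlap between the days. On the scale per kilobase the mean ratios were above 1, at 1.33 and 1.03 for ligands and at 1.63 and 1.08 for targets at day 5 and day 7. The order of the 3 roles is therefore that of CPM, the main scale for reads from transcript ends. It was not kept after division by exon length.

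**Figure D3:**
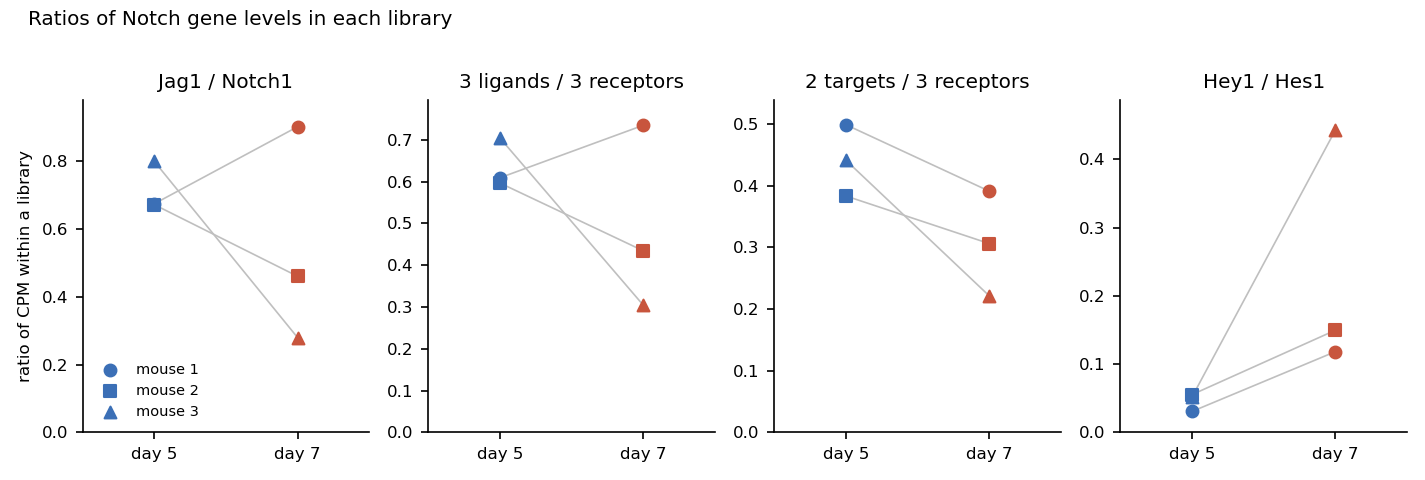
Ratios of CPM within a library (vertical axes, from 0) at day 5 and day 7 for *Jag1* to *Notch1*, the 3 ligands to the 3 receptors, both targets to the 3 receptors, and *Hey1* to *Hes1*. Symbols are mice, joined by lines; the *Hey1* to *Hes1* ratio is the only one of the 4 whose days do not overlap.

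The day 7 libraries of mouse 1 and mouse 3 each held an end position for most of the genes. Among the day 7 libraries, that of mouse 3 had the highest *Notch1*, *Lfng* and *Hey1* and the lowest *Notch2*, *Notch3*, *Jag1*, *Jag2*, *Dll1* and *Hes1*. That of mouse 1 had the lowest *Notch1* and *Lfng* and the highest *Notch3*, *Jag1*, *Jag2*, *Dll1*, *Maml2* and *Hes1*, and its *Hey1* was close to that of mouse 2. The depth of the mouse 3 library, 2154261 counts, was the lowest of the day 7 libraries. *Hey1* was higher at day 7 with or without either library. Its log2 fold change was 1.18 without that of mouse 3 (adjusted p = 0.0099 in edgeR) and 1.60 without that of mouse 1 (adjusted p = 0.0027).

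**Figure D4:**
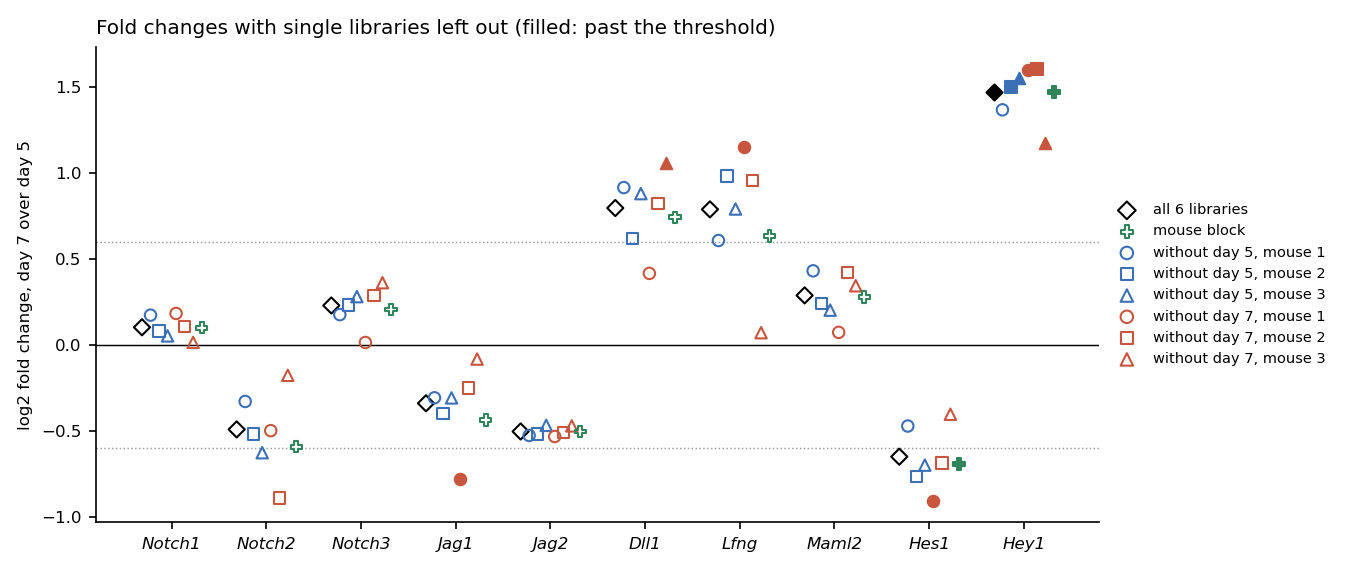
Log2 fold change of day 7 over day 5 (vertical axis) for each Notch gene with all 6 libraries, with the mouse as a block, and with 1 library left out. Filled symbols are past the threshold and dotted lines mark 0.6 and -0.6; *Lfng* drops to 0.07 without the day 7 library of mouse 3, and *Hey1* stays between 1.18 and 1.61.

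The 67 other genes of the pathway on the list covered further receptors and ligands, glycosylation, receptor cleavage, trafficking, nuclear activation, corepression, turnover of the intracellular domain and targets. Of these, 60 passed the filter and 5 rose past the threshold (8.33%, against 12.0% of all genes tested), 1 each among ligands, trafficking, corepression, turnover and targets. With all 6 libraries, none of the 60 passed as lower in edgeR, DESeq2 or limma voom. Without the day 7 library of mouse 1, 1 passed as lower in edgeR, against 1039 of all genes. Without that of mouse 3, 2 did, against 1127 of all genes. With all 6 libraries, 13 reached an unadjusted p under 0.05 in edgeR, 10 higher and 3 lower. That is 13 of 60, against 25.8% of all genes tested. Their median log2 fold change was 0.20, with 40 positive and 20 negative values, against 7833 positive and 7959 negative values over all genes tested.

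*Dlk1*, a Delta-like protein without the domain by which classical ligands bind Notch, was at 7.42, 7.53 and 9.00 CPM at day 5 and at 34.1, 22.9 and 7.34 CPM at day 7. Mouse 3 did not share the rise, so the days overlapped although the gene passed (log2 fold change 1.44 ± 0.41, adjusted p = 0.0260 in edgeR). *Numb*, an endocytic adaptor known to restrain Notch, went from 14.4, 13.6 and 14.8 CPM to 17.6, 27.1 and 46.01 CPM (1.07 ± 0.32, adjusted p = 0.0338). *Cir1*, a corepressor that binds RBPJ, went from 23.5, 34.1 and 28.5 CPM to 39.9, 54.1 and 76.4 CPM (0.98 ± 0.26, adjusted p = 0.0168). The days of *Numb* and *Cir1* did not overlap.

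*Cdk19*, a kinase of the Mediator complex closely related to *Cdk8*, went from 41.6, 34.1 and 40.7 CPM to 50.2, 59.4 and 105 CPM (0.87 ± 0.26, adjusted p = 0.0338). *Cdk8*, looked up after its values had been seen, went the other way in every mouse without passing. It was at 38.3 and 25.7 CPM on average (log2 fold change -0.58, adjusted p = 0.154 in edgeR). Of the 4 turnover genes tested, 2 had positive and 2 had negative fold changes. *Gata3*, a transcription factor described as a Notch target in other tissues, went from 11.5, 8.03 and 11.5 CPM to 19.6, 20.8 and 22.5 CPM (1.00 ± 0.28, adjusted p = 0.0243). All day 7 values of *Cdk19* and *Gata3* were above all day 5 values. None of the 5 passed when any 1 of the day 5 libraries or the day 7 library of mouse 2 was left out, although the fold changes stayed between 0.79 and 1.53. Without the day 7 library of mouse 3, *Numb* (log2 fold change 0.65, adjusted p = 0.082 in edgeR) and *Cdk19* (0.49, adjusted p = 0.063) did not pass. *Dlk1* did not pass without the day 7 library of mouse 1 (0.96, adjusted p = 0.102) or in limma voom (1.22, adjusted p = 0.059). Over all libraries left out in turn, *Gata3* stayed between 0.86 and 1.08 and *Cir1* between 0.72 and 1.18.

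Apart from *Dlk1*, which led the other ligands, the most abundant other gene of each role did not pass. Among the cleavage enzymes this was *Furin*, which cuts the receptor precursor, at 239 CPM at day 5 and 377 CPM at day 7 on average (log2 fold change 0.66, adjusted p = 0.126). For nuclear activation it was *Snw1* by the mean of both days, at 209.8 and 226 CPM. *Crebbp* was above *Snw1* at day 5, at 232 CPM, and below it at day 7, at 184 CPM. For corepression the most abundant was *Ncor1*, at 380.1 and 333 CPM. In trafficking it was the ligand-activating ubiquitin ligase *Mib1*, at 129 and 148 CPM, and in turnover *Fbxw7*, which marks the intracellular domain for degradation, at 72.5 and 83.0 CPM. For glycosylation *Poglut1*, which adds glucose to the receptor, was at 57.8 and 41.5 CPM (log2 fold change -0.48, adjusted p = 0.166). The cyclin gene *Ccnd1* led the targets at 2139 and 1786 CPM (log2 fold change -0.26, adjusted p = 0.408).

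Some genes outside this choice were looked up after their values had been seen. *Rbpj*, the DNA-binding partner of the receptor's intracellular domain, was at 42.9 and 50.3 CPM on average (log2 fold change 0.23, adjusted p = 0.541 in edgeR). Of the 12 other targets listed, 7 passed the filter, 5 with positive and 2 with negative fold changes, and 1, *Gata3*, passed the threshold. Among them, *Nrarp* was at 71.3 and 60.2 CPM on average (log2 fold change -0.24, adjusted p = 0.638 in edgeR). *Hes6* was at 67.6 and 83.3 CPM (0.30, adjusted p = 0.366). The ligand gene *Dll4*, the fringe gene *Mfng*, the targets *Hes2*, *Hes3*, *Hes5* and *Hey2*, and *Dtx1* had no count in any library, which allows up to 1.04 to 1.51 CPM in a library.

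**Figure D5:**
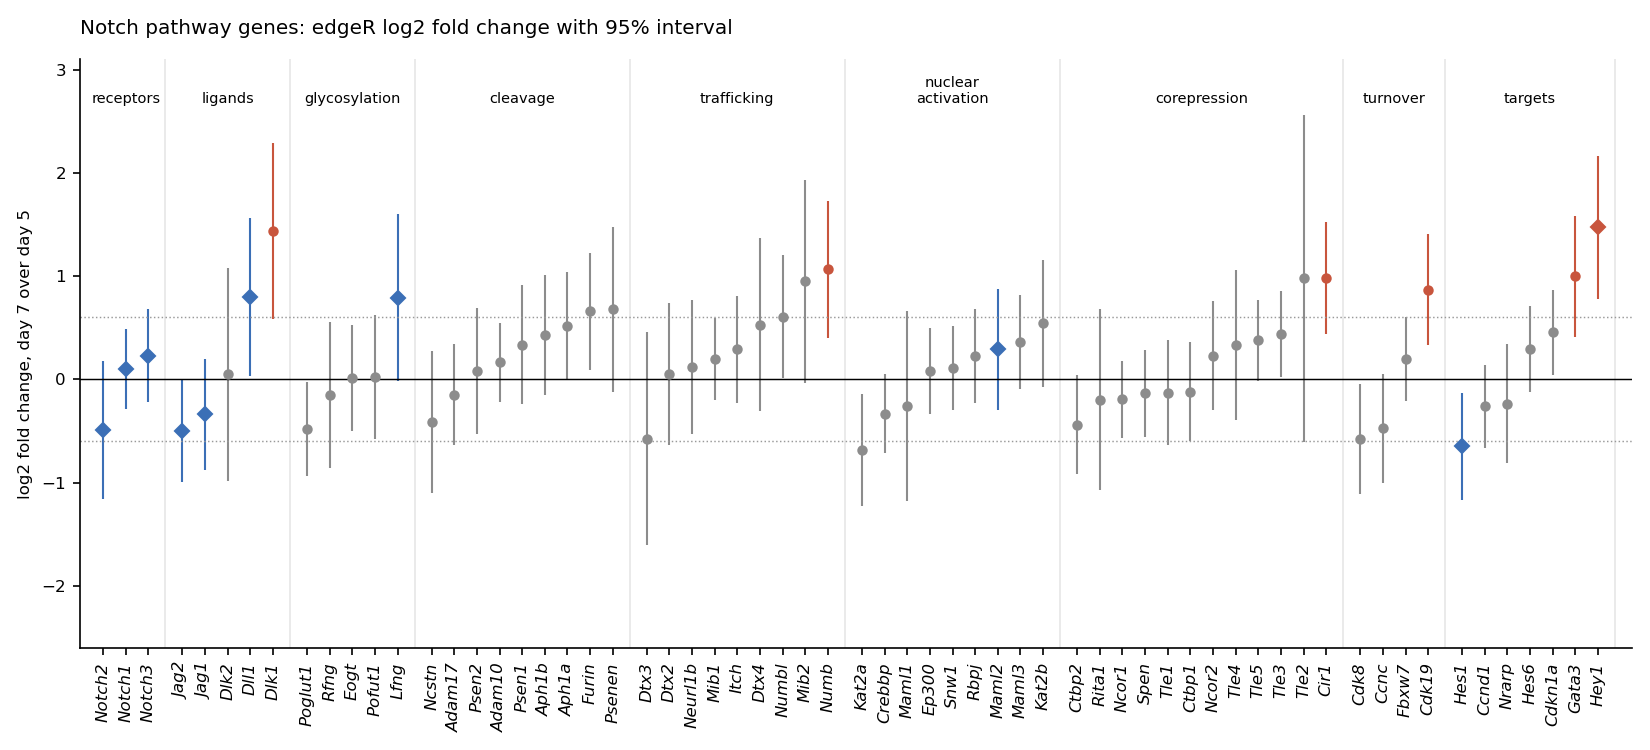
Log2 fold change of day 7 over day 5 with its 95% interval from edgeR (vertical axis) for the 10 Notch genes (diamonds) and the 53 other pathway genes whose mean reached 2 CPM (circles), grouped by role. Red symbols are past the threshold, blue are Notch genes that did not pass, grey are other genes that did not pass and dotted lines mark 0.6 and -0.6; *Hey1* and 5 other genes are red, all above 0.

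Genes with a profile like that of 4 members were sought among 6129 genes whose mean count was 50 or more, by Pearson correlation of log2 CPM over the 6 libraries. The libraries fall into 2 days, so that a correlation takes in the difference between the days. The genes named are the highest of the 6129. How many unrelated genes would reach such values over 6 libraries was not tested. The closest to *Hey1* were *Wbp1l* (r = 0.997), *Ak3* (r = 0.996) and *Shisa5* (r = 0.995), and 222 genes had r over 0.95. The closest to *Hes1* were *Ehmt1* (r = 0.996), *Actn1* (r = 0.994) and *Hpf1* (r = 0.992), with 91 genes over 0.95. For *Jag1* these were *Trappc1* (r = 0.996), *Cbl* (r = 0.994) and *Rnf181* (r = 0.992), with 70 genes over 0.95. For *Notch1*, whose level varied little, these were *Socs5* (r = 0.983), *Mis12* (r = 0.982) and *Pde5a* (r = 0.981), with 10 genes over 0.95.

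Promoters were searched for the core of the RBPJ motif, TGGGAA on either strand, since RBPJ is the DNA-binding partner that all Notch receptors share. RefSeq promoters of GRCm38.p6, taken as the 250 bases before a start, were matched for 8 of the 10 genes, with 10 starts in all; *Hes1* and *Hey1* had no entry. The core was found at 2 of these 10 starts, against 21.6% of 32851 promoters. It lies 2 times before the start of *Lfng* and 1 time before the second start of *Maml2*. The longer GTGGGAA, which contains the core, was found in 5.42% of promoters and, among these genes, before *Lfng* alone. The *Lfng* promoter is shown because it holds both forms; capitals mark the core, 135 to 130 and 108 to 103 bases before the start, at chr5:140607091-140607340 of GRCm38.p6, plus strand.
Lfng: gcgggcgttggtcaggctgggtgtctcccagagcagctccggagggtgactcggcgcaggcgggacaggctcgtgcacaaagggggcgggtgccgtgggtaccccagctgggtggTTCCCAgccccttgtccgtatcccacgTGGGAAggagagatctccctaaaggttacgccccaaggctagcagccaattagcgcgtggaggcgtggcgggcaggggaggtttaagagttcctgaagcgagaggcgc
A match is a run of letters and does not show that RBPJ binds there.

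Neighbouring genes bear on some of the counts, since whether reads were counted by strand is not given in the sources used here. In GENCODE vM39, exons of *Notch1* overlap those of 0610009E02Rik and Gm13568 on the other strand, exons of *Notch3* those of Gm17276, and exons of *Dll1* those of Fam120b. *Notch2* shares exon bases with Gm42820 and *Jag2* with Mir6941 on the same strand. Reads in stretches shared on the same strand cannot be told apart by gene. Those in stretches shared with the other strand can be told apart only if reads were counted by strand. The exons of *Jag1*, *Lfng*, *Maml2*, *Hes1* and *Hey1* overlap no other gene that the files count.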

How the data were processed

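RNA of 6 libraries (3 mice, day 5 and day 7) was sequenced from the 3′ end after preparation from 100 ng of RNA with the Lexogen QuantSeq kit. The authors deposited raw read counts per Ensembl gene ID, made after alignment to GRCm39; the aligner, annotation, strand setting and treatment of reads with several alignments are not given in the sources used here. Entries that name no gene, 13.7% to 14.4% of reads at day 5 and 9.12% to 9.74% at day 7, were left out. Names, coordinates and exon lengths came from GENCODE vM39 by exact ID, which matched 43465 of 47643 IDs (91.2%).

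The 15792 genes that had 1 count or more in 2 libraries or more were compared between the days with the quasi-likelihood test of edgeR 4.0.16 in R 4.3.3, two-sided, with TMM scaling, day as the only term and Benjamini-Hochberg adjustment over all genes. To pass, a gene needed a log2 fold change above 0.6 or below -0.6 and an adjusted p under 0.05, as in the methods of the study. The script was tested on simulated data that had the same spread at both days, unlike these libraries. CPM is the count over the scaled library total, times 1000000; log2 CPM used a prior count of 2. Standard errors and 95% intervals are those of the fitted fold change, and floors of 3 counts cover counting error only. Within a day, counts of 2 libraries differed by a chi-square of 2.09 or more per degree of freedom, so none were counted as 1.

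Libraries of a number come from 1 mouse, per the labels. Over 8172 genes with at least 10 CPM, deviations from the day mean correlated at 0.137, -0.100 and 0.162 within mice 1, 2 and 3.

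The genes and lists were chosen with earlier results of these data known. All 10 Notch genes are named; of other pathway genes, those past the threshold (at most 3 per direction and role) and the most abundant of each role; and, for *Hes1*, *Hey1*, *Notch1* and *Jag1*, the 3 genes with the most similar profile. Alternatives were other scaling (size factors of DESeq2, upper quartile, library totals), other filters (none, filterByExpr), DESeq2 1.42.0, voom of limma 3.58.1 with a weight per day, the mouse as a block, glmTreat, no minimum fold change, leaving out each library, CPM per kilobase and the median for levels.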

Additional observations from a re-analysis of the deposited data

How the results depend on the processing

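Over 16 alternatives for each of the 10 Notch genes, 151 of 160 fold changes kept their direction and their side of the threshold, and 0 changed direction. The alternatives glmTreat and no minimum fold change use the fold changes of the main fit, so their direction could not change. The 2 that lost the call were both of *Hey1* and the 7 that gained it were of *Hes1* (3), *Lfng* (2), *Jag1* and *Dll1* (1 each). The number of Notch genes past the threshold, 1, became 3 without a filter (*Hey1*, *Hes1* at -0.65 and *Lfng* at 0.79), 2 with the mouse as a replicate block (*Hey1* and *Hes1*), 0 with glmTreat and 0 to 4 when single libraries were left out. The pairing by mouse changed no other call among the 10. For the other pathway genes the number, 5, became 2 with filterByExpr, 0 with glmTreat and 0 to 6 without single libraries. For all genes 1901 became 2405 without a filter, 2340 with the mouse as a block and 622 with glmTreat. It became 797 to 2576 without single libraries, which leaves 1 day with fewer libraries. With library totals alone, 950 genes were higher and 1008 lower at day 7, against 1140 and 761 with TMM scaling; the median of all genes moved by -0.09. Division by kilobase moved 6 genes in the order of day 5 and 9 in that of day 7, and medians moved 2 at day 7; leaving out a library moved 0 to 2 at day 5 and 2 to 5 at day 7. Per kilobase, the ratios were 1.33 and 1.03 for ligands and 1.63 and 1.08 for targets to receptors at day 5 and day 7, and 0.0323 for *Hey1* to *Hes1* at day 5. The cause of these shifts was not tested. Depth limits *Hey1* and *Dll1* most, with 11 to 24 counts per library at day 5.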
